A study of Mus musculus with 2 samples.

Results

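The 10 endothelial identity and junction genes Cdh5, Pecam1, Eng, Emcn, Esam, Cd34, Sox18, Erg, Egfl7 and Lyve1 were followed in RNA-seq libraries of whole mouse uterus on gestational day 4. They were found by gene symbol, and all 10 were among the 20634 genes listed. The libraries were 1 of Mettl3 ed/ed uterus and 1 of Mettl3 f/f uterus, from females aged 6 to 8 weeks at mating, with the day of the vaginal plug counted as day 1. The protein of Mettl3 is the enzyme that writes N6-methyladenosine on RNA. The sources used here do not give what ed and f stand for, the promoter of any Cre or the number of animals in a library. Each genotype has 1 library, so nothing could be tested or checked against a replicate, and each difference is between these 2 libraries. The unit was taken to be FPKM, which scales fragments to transcript length and to the mapped total.

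Endothelial cells line blood and lymphatic vessels and hold to each other by adherens and tight junctions. VE-cadherin, encoded by Cdh5, forms the adherens junction and binds catenins inside the cell, while immunoglobulin-family proteins such as those of Pecam1 and Esam join at the same borders. ETS-family factors such as Erg and SOX factors such as Sox18 switch these genes on. In the uterus, vessels grow and become permeable around the time of embryo attachment.

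Of the 10 genes, 9 reached 1 FPKM in at least 1 library, and all 9 were lower in the ed/ed library than in the f/f library. Cdh5, Eng, Pecam1 and Cd34 were at least 2-fold lower, and none was higher. The background was 6.22% of 12165 genes at least 2-fold lower and 2.68% at least 2-fold higher. The median log2 ratio was -0.96 over the 9 genes and -0.26 over all 12165 genes. At 1.5-fold, 8 of the 9 were lower, against 23.4% of all genes. Ratios were formed on the log2 scale after 1 was added to each FPKM, with ed/ed on top, which understates differences of low genes. The 2-fold limit is a size and no test. In whole tissue, fewer endothelial cells and less RNA of these genes per cell cannot be told apart.

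Mettl3 itself (chromosome 14, 52294841 to 52305128) was at 10.2 FPKM in the library labelled ed/ed and 10.6 FPKM in the library labelled f/f, a log2 ratio of -0.05 that was above 0 under all 4 other scalings. The level of Mettl3 therefore did not separate the libraries, and every direction given here rests on their labels. A gene-level value of whole uterus cannot show a loss of part of the transcript, or a loss in some cells only. Depth was estimated at 17400000 fragments in ed/ed and 18300000 in f/f. The listed FPKM summed to 491403 in ed/ed and 522049 in f/f, with 11563 genes at 1 FPKM or more in ed/ed and 11876 in f/f.

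Promoter sequence is shown for the 3 genes with a single start in the RefSeq table for GRCm38.p6, Cd34 and Eng from the genes at least 2-fold lower and Emcn from those within 2-fold. Each window runs from 250 bases before the start to 50 after it, 5′ to 3′ on the plus strand. Capitals mark GGAA, the core letters bound by ETS factors, or its reverse complement TTCC.
Cd34, chr1:194938571-194938870: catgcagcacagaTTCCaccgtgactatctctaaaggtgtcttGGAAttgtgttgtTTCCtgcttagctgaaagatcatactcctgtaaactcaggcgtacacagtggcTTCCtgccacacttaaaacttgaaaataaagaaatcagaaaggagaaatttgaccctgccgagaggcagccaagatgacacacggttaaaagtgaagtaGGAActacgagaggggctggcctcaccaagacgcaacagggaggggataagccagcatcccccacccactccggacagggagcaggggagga
Eng, chr2:32646345-32646644: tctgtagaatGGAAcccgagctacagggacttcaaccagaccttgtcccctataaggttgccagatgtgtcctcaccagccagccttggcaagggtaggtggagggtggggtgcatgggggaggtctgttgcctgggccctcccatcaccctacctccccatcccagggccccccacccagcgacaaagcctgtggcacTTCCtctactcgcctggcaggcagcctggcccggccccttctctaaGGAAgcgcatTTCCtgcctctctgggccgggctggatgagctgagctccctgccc
Emcn, chr3:137340828-137341127: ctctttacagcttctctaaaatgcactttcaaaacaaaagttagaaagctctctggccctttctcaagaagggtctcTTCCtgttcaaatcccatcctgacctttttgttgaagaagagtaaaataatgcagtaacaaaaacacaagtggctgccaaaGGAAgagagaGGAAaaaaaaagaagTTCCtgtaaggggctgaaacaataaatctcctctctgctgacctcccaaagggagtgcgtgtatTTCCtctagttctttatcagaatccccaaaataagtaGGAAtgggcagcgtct

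Letters of 3 motifs were counted on both strands in the 9 windows of the 5 genes that the table holds, which are these 3, Egfl7 and Erg. GGAA occurred 5 times in the Cd34 window, 4 times in that of Eng and 6 times in that of Emcn. At the 3 listed starts of Egfl7 it occurred 5, 4 and 1 times, and at the 3 of Erg 1, 4 and 2 times. Of 32851 windows of this length in the table, 96.0% hold GGAA, with a median of 3 copies. The longer form CAGGAA, each copy of which also counts as a GGAA, was found in 30.6% of all windows. Cd34 and Emcn had 2 copies, Eng had 1, Egfl7 had 2, 1 and 0, and Erg had 0, 0 and 1. AACAAT, the core letters bound by SOX factors, was found in 10.7% of all windows, once in that of Emcn and once at the third start of Erg. A match describes letters, not a bound site.

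Cdh5 (ENSMUSG00000031871, GRCm38 chromosome 8, 104101625 to 104144511), the VE-cadherin gene, was at 12.01 FPKM in ed/ed and 42.0 FPKM in f/f. It was 3.30-fold lower, and 98 of the 12165 genes had a ratio as low or lower. From the estimated depth, these levels rested on 781 and 2875 fragments. The plain ratio of FPKM was 0.286, with a 95% interval of 0.264 to 0.310 that covers counting error only, as do all intervals below. An antisense gene, Gm29682, overlaps Cdh5 by 4249 bases, is not analysed here, and cannot be told apart without strand.

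Pecam1 (chromosome 11, 106654217 to 106750628), which encodes the adhesion receptor CD31 of endothelium, platelets and leukocytes, was at 11.96 FPKM in ed/ed and 28.7 FPKM in f/f. It was 2.29-fold lower, with a plain ratio of 0.417 (interval 0.381 to 0.457). Esam (chromosome 9, 37528078 to 37538319), a tight junction adhesion molecule of endothelium and platelets, was at 25.1 FPKM in ed/ed and 42.5 FPKM in f/f. Its 1.66-fold lower value lay within 2-fold, with a plain ratio of 0.591 (interval 0.539 to 0.649). The 3 junction genes were therefore lower by different amounts, with intervals that did not overlap.

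Eng (chromosome 2, 32646595 to 32682669) encodes endoglin, a co-receptor for bone morphogenetic proteins. It was at 11.8 FPKM in ed/ed and 29.2 FPKM in f/f, 2.35-fold lower, with a plain ratio of 0.406 (interval 0.370 to 0.445). It shares 61 bases with Fpgs on the other strand, which was at 7.81 FPKM in ed/ed and 12.2 FPKM in f/f. Cd34 (chromosome 1, 194938819 to 194961279), a sialomucin of endothelium, blood progenitors and some stromal fibroblasts, was the most abundant of the 10 at 54.8 FPKM in ed/ed and 124.6 FPKM in f/f. It was 2.25-fold lower, with a plain ratio of 0.440 (interval 0.418 to 0.462). The antisense gene Gm16897, not analysed here, overlaps it by 5521 bases and likewise cannot be told apart without strand. Emcn (chromosome 3, 137341067 to 137432185), a sialomucin of capillary and venous endothelium, was at 20.98 FPKM in ed/ed and 36.8 FPKM in f/f, 1.72-fold lower, with a plain ratio of 0.571 (interval 0.524 to 0.621). Of these 3 surface genes, Eng and Cd34 passed 2-fold and Emcn did not.

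The transcription factor gene Sox18 (chromosome 2, 181669836 to 181671640), needed for vessel and lymphatic development, was at 15.1 FPKM in ed/ed and 30.3 FPKM in f/f. It lay just within the rule at 1.94-fold lower, while its plain ratio was 0.498 (interval 0.438 to 0.565). Erg (chromosome 16, 95359169 to 95586593), the ETS factor that maintains endothelial identity, was at 4.06 FPKM in ed/ed and 7.66 FPKM in f/f, 1.71-fold lower, with a plain ratio of 0.529 (interval 0.446 to 0.626). Both intervals hold a ratio of 0.5, so the counting error alone leaves 2-fold unresolved for these genes. Both factor genes were thus lower, and neither passed 2-fold with 1 added to each FPKM, though the plain ratio of Sox18 did.

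Egfl7 (chromosome 2, 26580014 to 26593120), a secreted vascular matrix protein whose gene hosts a microRNA, differed least. It was at 28.8 FPKM in ed/ed and 37.7 FPKM in f/f, 1.30-fold lower, with a plain ratio of 0.764 (interval 0.685 to 0.853) above the interval of every other gene of the set. Its log2 ratio of -0.38 was closer to the all-gene median of -0.26 than those of the other 8, and 4804 genes had a ratio as low or lower. Egfl7 shares 64 bases with Agpat2 on the other strand, at 41.5 FPKM in ed/ed and 24.3 FPKM in f/f, and overlaps Gm20532 on its own strand, which is not analysed here.

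Lyve1 (chromosome 7, 110850607 to 110863239), a hyaluronan receptor of lymphatic endothelium and some macrophages, did not reach 1 FPKM and is left out of the counts. It was at 0.245 FPKM in ed/ed and 0.779 FPKM in f/f, which correspond to about 11 and 38 fragments and a plain ratio of 0.315 (interval 0.141 to 0.609). That interval overlapped those of the other genes except Egfl7, so its place in the order of ratios was not resolved at this depth.

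**Figure D1:**
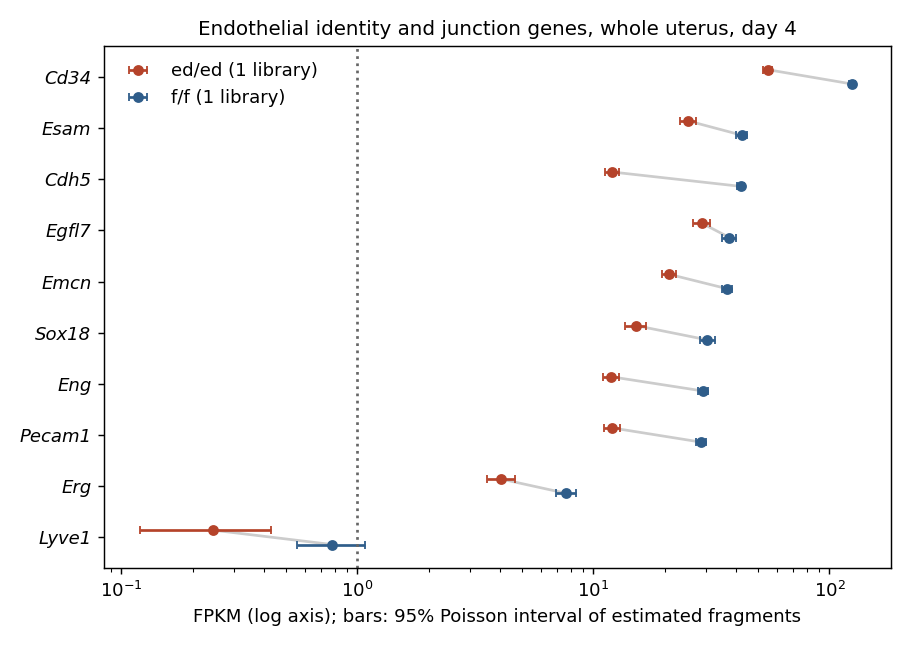
FPKM (log axis) of the 10 genes in the ed/ed library (upper point of each pair) and the f/f library (lower point), ordered by level in f/f. Bars are 95% Poisson intervals of the estimated fragments and do not include the spread between animals, and the dotted line is 1 FPKM. Every ed/ed point lies left of its f/f point, with the widest gap for Cdh5 among the 9 genes above 1 FPKM.

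The order of levels differed between the libraries, with Cdh5 and Egfl7 moving furthest. In ed/ed the order was Cd34, Egfl7, Esam, Emcn, Sox18, Cdh5, Pecam1, Eng, Erg and Lyve1. In f/f it was Cd34, Esam, Cdh5, Egfl7, Emcn, Sox18, Eng, Pecam1, Erg and Lyve1. Neighbours with overlapping intervals in ed/ed were Egfl7 and Esam, and Cdh5, Pecam1 and Eng. In f/f they were Esam and Cdh5, Egfl7 and Emcn, and Sox18, Eng and Pecam1 in turn. The plot of FPKM by gene shows the same order.

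Ratios taken within a library do not depend on how the libraries are scaled. They do keep the trend with transcript length described below, and Cdh5 at 3995 nt and Egfl7 at 1391 nt differ in length. The Cdh5 level was 1.00 times that of Pecam1 in ed/ed and 1.46 times in f/f. Against Egfl7 it was 0.417 times in ed/ed and 1.12 times in f/f. Cdh5 made up 6.50% of the summed FPKM of the 10 genes in ed/ed and 11.05% in f/f, and Egfl7 made up 15.6% in ed/ed and 9.91% in f/f. The sum over the 10 genes was 184.9 FPKM in ed/ed and 380.1 FPKM in f/f.

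Other endothelial genes, listed with earlier results of these data known, were also lower in ed/ed. Of 25 listed, 24 were expressed, and 13 of these were lower by 2-fold or more, against 6.22% of all genes. None was higher, and the list's median was -1.05 on the log2 scale. Across the 4 other scalings 5 to 12 were lower, with medians from -0.99 to -0.78. The 5 were found after scaling by housekeeping genes, against 2.73% of all genes. Removal of the length trend left 6 lower, against 2.85%. A pseudocount of 5 FPKM left 4, against 1.70%, with a median of -0.61. The angiopoietin receptor gene Tek was at 1.93 FPKM in ed/ed and 7.92 FPKM in f/f. Podxl, which encodes podocalyxin, a sialomucin of the Cd34 family, was at 13.8 FPKM in ed/ed and 43.6 FPKM in f/f. Its level in f/f was near the 42.0 FPKM of Cdh5, and which cells it came from was not tested. Aplnr, the apelin receptor gene, was at 8.43 FPKM in ed/ed and 26.6 FPKM in f/f, and the adhesion receptor gene Adgrl4 was at 4.58 FPKM in ed/ed and 14.4 FPKM in f/f. These 4 had the lowest ratios of that list.

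Among 27 expressed genes of junction partners, which epithelium and stroma also use, the median was -0.32. Of these 27, 4 passed 2-fold on the lower side, against 6.22% of all genes, and 0 on the higher. Under each of the 4 other scalings 2 were lower, and 1 was higher under 3 of them, while removal of the length trend gave 1 lower and 1 higher. The median of -0.32 lay 0.06 below that of all genes, and it was above 0 after scaling by housekeeping genes and after removal of the length trend. The 4 were mostly genes with known vascular roles. Jam2, which encodes a junctional adhesion molecule, was at 78.7 FPKM in ed/ed and 294 FPKM in f/f, 3.70-fold lower. Its level in f/f was above the 42.0 FPKM of Cdh5, and which cells it came from was not tested. Heg1, a receptor of the endothelial junction complex, was at 11.9 FPKM in ed/ed and 33.0 FPKM in f/f. The tight junction claudin gene Cldn5 was at 4.96 FPKM in ed/ed and 11.5 FPKM in f/f, and Jam3 was at 9.14 FPKM in ed/ed and 20.1 FPKM in f/f. The catenins that VE-cadherin binds lay within 2-fold, though by differing amounts. Ctnnb1 was at 220.1 FPKM in ed/ed and 302 FPKM in f/f, and Ctnnd1 at 46.3 FPKM in ed/ed and 45.7 FPKM in f/f. The catenin gene Jup was at 22.4 FPKM in ed/ed and 43.4 FPKM in f/f, 1.90-fold lower. Its plain ratio was 0.515 (interval 0.480 to 0.553), which leaves 2-fold unresolved. F11r, a junctional adhesion molecule shared with epithelium, was at 77.4 FPKM in ed/ed and 63.6 FPKM in f/f.

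Transcription factors that act in endothelium were not lower than all genes as a list. Of 22 expressed besides Erg and Sox18, 14 had log2 ratios below 0, as did 8564 of all 12165 genes. Of these 22, 0 were at least 2-fold lower or higher, and their median log2 ratio was -0.17, above the all-gene median. That median was at or above 0 under 3 of the 4 other scalings and after removal of the length trend. Ets1, an ETS factor, was at 6.79 FPKM in ed/ed and 13.9 FPKM in f/f. Mef2c was at 2.13 FPKM in ed/ed and 4.49 FPKM in f/f, Hhex at 3.59 FPKM in ed/ed and 6.81 FPKM in f/f, and Tal1 at 0.958 FPKM in ed/ed and 2.28 FPKM in f/f. Fli1, the ETS factor closest to Erg, was at 3.38 FPKM in ed/ed and 4.91 FPKM in f/f. The other SOX genes of the same subgroup as Sox18 had higher values in ed/ed, Sox17 at 283 FPKM in ed/ed and 204 FPKM in f/f, and Sox7 at 15.7 FPKM in ed/ed and 13.6 FPKM in f/f. Sox17 is also known in uterine epithelium, so its level is not that of vessels alone. Gata2, at 139 FPKM in ed/ed and 197 FPKM in f/f, was also far above Erg. The list median in whole tissue is therefore not a measure of these factors in endothelium.

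The partners and targets of endoglin were near the background. Of 16 expressed, 0 were at least 2-fold lower or higher, and the median log2 ratio of -0.24 was above 0 under 2 of the 4 other scalings and after removal of the length trend. The type II receptor gene Bmpr2 was at 5.78 FPKM in ed/ed and 10.3 FPKM in f/f. The type I receptor gene of endothelium, Acvrl1, was at 4.28 FPKM in ed/ed and 6.996 FPKM in f/f. The co-receptor gene Tgfbr3 was at 4.34 FPKM in ed/ed and 7.09 FPKM in f/f, and Tgfbr2 was at 23.4 FPKM in ed/ed and 30.6 FPKM in f/f. Of the ligand genes, Gdf2 and Bmp10 were listed at 0 in both libraries, and Bmp4 was at 1.12 FPKM in ed/ed and 2.003 FPKM in f/f.

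Of 15 listed genes of lymphatic endothelium, 10 were expressed, with a median of -0.83. Of these, 1 passed 2-fold on the lower side, against 6.22% of all genes, and 0 on the higher. None passed under the 4 other scalings, with a trend removed or with a pseudocount of 5 FPKM, whereas 5 were lower and 1 higher with a pseudocount of 0.1 FPKM. With no filter on low values the median was -0.54, against 0 for all genes. The defining factor gene Prox1 was listed at 0 in ed/ed and at 0.210 FPKM in f/f, and the lymphatic chemokine gene Ccl21a was listed at 0 in ed/ed and at 0.260 FPKM in f/f. Flt4, a receptor for lymphatic growth factors, was at 0.555 FPKM in ed/ed and 1.75 FPKM in f/f, and Pdpn was at 0.731 FPKM in ed/ed and 2.05 FPKM in f/f. Like Lyve1, these markers were low in both libraries. Vegfd, a lymphatic growth factor gene, had the higher value in ed/ed, at 1.23 FPKM in ed/ed and 0.491 FPKM in f/f. So did 3 genes near 0. Mmrn1, at 0.0131 FPKM in ed/ed, and Reln, at 0.0200 FPKM in ed/ed, were listed at 0 in f/f. Foxc2 was at 0.0933 FPKM in ed/ed and 0.0436 FPKM in f/f. In ed/ed these values rested on about 1, 4 and 4 fragments. The more abundant genes of the list, the integrin gene Itga9 at 9.78 FPKM in ed/ed and 20.2 FPKM in f/f and the venous and stromal factor gene Nr2f2 at 25.9 FPKM in ed/ed and 49.2 FPKM in f/f, are also used by other cells. Ccbe1, which helps to activate a lymphatic growth factor, was at 0.680 FPKM in ed/ed and 2.33 FPKM in f/f, and the gap junction gene Gja4, the 1 past 2-fold, at 3.45 FPKM in ed/ed and 8.17 FPKM in f/f.

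Genes of leukocyte adhesion and hyaluronan handling, which include ligands of the pathways of Cd34 and Lyve1, had 14 expressed of 21 matched. Their median log2 ratio was -0.60. Of these 14, 0 passed 2-fold on the higher side and 3 on the lower, against 6.22% of all genes lower. Besides Podxl, these were the hyaluronan receptor genes Cd44, at 9.79 FPKM in ed/ed and 21.1 FPKM in f/f, and Hmmr, also a mitotic gene, at 2.47 FPKM in ed/ed and 6.26 FPKM in f/f. Across the 4 other scalings, 1 to 2 genes of the list were 2-fold lower. With no filter on low values the median was -0.24, against 0 for all genes. Podxl and Icam2 are also among the other endothelial genes above. Chst2, a sulfotransferase that acts on L-selectin ligands, was at 2.31 FPKM in ed/ed and 5.12 FPKM in f/f. The endothelial selectin gene Sele was listed at 0 in both libraries, and Selp was below 1 FPKM in both.

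Pericytes, which wrap small vessels, also had lower markers in ed/ed. Of 13 expressed, 4 passed 2-fold on the lower side, against 6.22% of all genes, and 0 on the higher, and the median was -0.83. Rgs5, a regulator of G-protein signalling that marks pericytes, was at 31.0 FPKM in ed/ed and 77.7 FPKM in f/f. Notch3 was at 0.911 FPKM in ed/ed and 3.06 FPKM in f/f, Cox4i2 at 1.97 FPKM in ed/ed and 5.65 FPKM in f/f, and Ndufa4l2 at 6.34 FPKM in ed/ed and 14.004 FPKM in f/f. After scaling by housekeeping genes 0 of these pericyte genes were 2-fold lower, against 2.73% of all genes, with a median of -0.52.

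Markers of other cell types were measured beside these genes. Stroma, some of whose fibroblasts carry Cd34, had 6 of 14 expressed genes at least 2-fold lower and a median log2 ratio of -0.96, and its 15 genes summed to 783 FPKM in ed/ed and 1518 FPKM in f/f. Its lowest ratio was that of the growth factor receptor gene Pdgfra, at 9.30 FPKM in ed/ed and 28.0 FPKM in f/f. Smooth muscle of the myometrium had 1 of 11 at least 2-fold higher, a median of 0.41, and sums of 984 FPKM in ed/ed and 609 FPKM in f/f, with the contractile gene Cnn1 at 122 FPKM in ed/ed and 48.2 FPKM in f/f. Epithelium had 1 of 15 higher, a median of 0.23, and sums of 2986 FPKM in ed/ed and 2921 FPKM in f/f. Across the 4 other scalings, 1 to 3 stromal genes were 2-fold lower, 3 to 4 myometrial genes 2-fold higher and 2 to 3 epithelial genes 2-fold higher. Over all genes these scalings gave 335 to 608 lower and 387 to 707 higher, against 757 and 326 as reported. Counts of higher genes thus rise with the scaling itself. The part of these differing cell-type levels in the lower endothelial genes was not tested.

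Blood cells and platelets can also carry Pecam1, Esam and Lyve1. Genes of blood and macrophages had a median of 0.41 over 12 expressed of 17, and sums of 373 FPKM in ed/ed and 229.7 FPKM in f/f. Of these 12, 1 was at least 2-fold higher, against 2.68% of all genes, and 0 lower. The gene past 2-fold was Lyz2, a lysozyme of macrophages and neutrophils, at 188 FPKM in ed/ed and 86.6 FPKM in f/f, which is most of the difference between the sums. Across the 4 other scalings 2 to 3 genes were 2-fold higher. The genes differed in direction. The pan-leukocyte gene Ptprc was at 5.88 FPKM in ed/ed and 3.65 FPKM in f/f, and the erythroid gene Alas2 at 3.52 FPKM in ed/ed and 1.36 FPKM in f/f. The Fc receptor gene Fcgr1 was at 0.198 FPKM in ed/ed and 1.29 FPKM in f/f, and the macrophage receptor gene Csf1r at 3.02 FPKM in ed/ed and 3.97 FPKM in f/f. The globin gene Hba-a1, whose near-identical copy makes its level uncertain, was at 13.5 FPKM in ed/ed and 24.7 FPKM in f/f. Cd163 and Timd4 were listed at 0 in both. Of 11 platelet genes 3 were expressed, with 0 past 2-fold and a median of -0.13 whose sign changed under 2 of the 4 other scalings. Gp9, Gp6, Treml1 and Tubb1 were listed at 0 in both libraries, and the platelet sum was 10.7 FPKM in ed/ed and 9.86 FPKM in f/f. Mesothelium, the outer lining, had 3 of 6 expressed and 0 past 2-fold, with a median of -0.80 that was -0.12 with no filter on low values. Its sums of 241 FPKM in ed/ed and 409.7 FPKM in f/f were mostly Krt19, which epithelium also expresses, and its defining genes Msln and Lrrn4 were listed at 0 in f/f and below 1 FPKM in ed/ed.

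**Figure D2:**
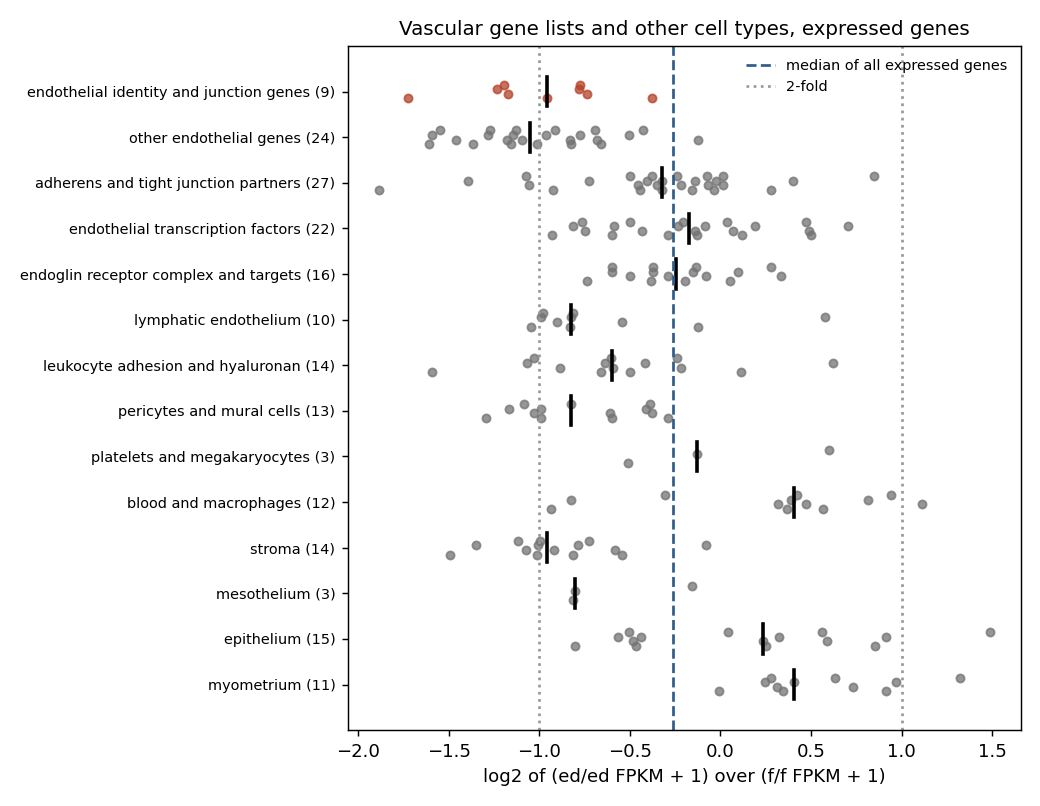
Log2 ratio, ed/ed on top and 1 added to each FPKM, for the expressed genes of each list, with 1 point per gene, a black bar for the list median and the number of genes in brackets. The dashed line is the median of all 12165 genes, -0.26, and the dotted lines are 2-fold. The 9 endothelial identity and junction genes (red, median -0.96), other endothelial genes, stroma, lymphatic endothelium, pericytes, mesothelium and leukocyte adhesion genes have medians of -0.60 or lower, whereas endothelial transcription factors and partners of endoglin centre on the dashed line. Some of these medians depend on the 1 FPKM filter. With no filter they were -0.54 for lymphatic endothelium, -0.24 for leukocyte adhesion genes and -0.12 for mesothelium, against 0 for all genes. For pericytes the median was then -0.72, for stroma -0.92, for the endothelial identity and junction genes -0.87 and for other endothelial genes -1.01.

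The size of the difference depended on the scale between the libraries. Of 11 alternatives, 8 can move the ratio of a gene, while the 2 filters and the 1.5-fold rule cannot. Cdh5 was at least 2-fold lower under all 8, with log2 ratios from -1.80 to -1.38. Eng passed 2-fold under 4 of the 8, Cd34 under 3 and Pecam1 under 2, with ratios that reached -0.89, -0.81 and -0.85 at their weakest. Sox18, within 2-fold as reported, passed under 1, the pseudocount of 0.1 FPKM. After scaling by the median ratio, 1 of the 9 genes was at least 2-fold lower against 3.15% of all genes, after scaling by the upper quartile 2 against 3.81%, and after scaling by 16 housekeeping genes, called the reference genes, 1 against 2.73%. Those 16 had a median log2 ratio of -0.37, with 1 at least 2-fold lower. All 9 log2 ratios were below 0 under all 8, though Egfl7 reached -0.02 after scaling by the reference genes.

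**Figure D3:**
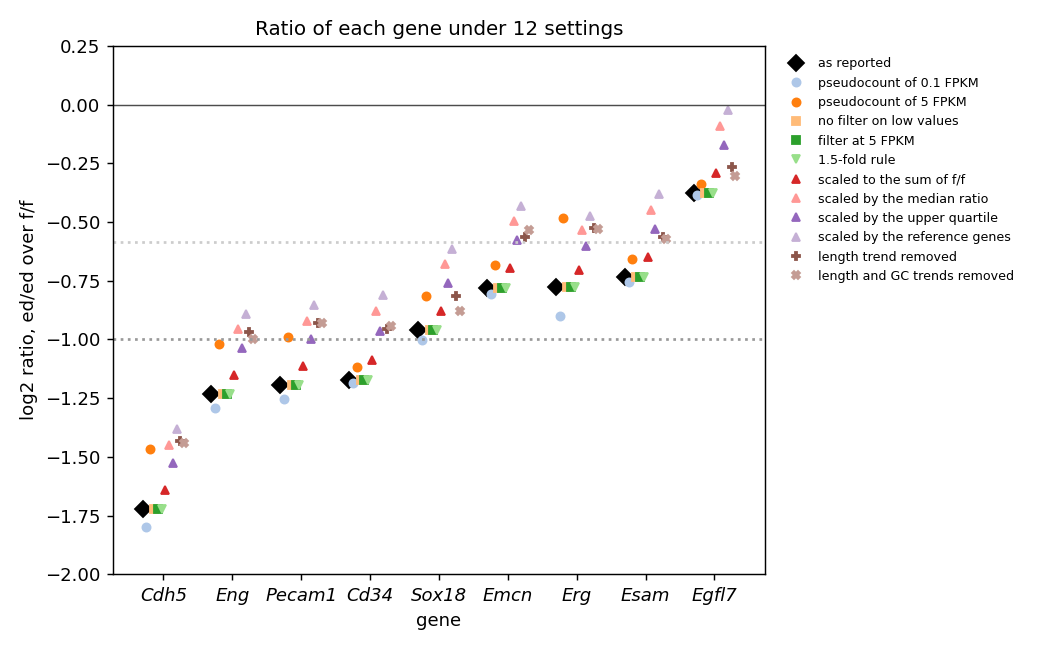
Log2 ratio of ed/ed over f/f for each of the 9 expressed genes under the reported setting (black diamonds) and 11 alternatives. The dotted lines are 2-fold and 1.5-fold, and the solid line is no difference. Cdh5 stays below the 2-fold line throughout (-1.80 to -1.38), and Egfl7 comes closest to 0.

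Ratios followed transcript length across the transcriptome, with a Spearman rho of -0.22 over 12158 genes, which are not independent. The 9 genes lay in the same direction, with a rho of -0.78 as a description of 9 points from the same libraries. The longest, Cdh5 at 3995 nt, had the lowest ratio, and the shortest, Egfl7 at 1391 nt, the highest. The median log2 ratio of all genes in the same 1 of 10 equal groups by length was -0.30 for Cdh5 and -0.13 for Egfl7. With the length trend removed, the median of the 9 was -0.81, with Cdh5 at -1.43, Eng at -0.97, Cd34 at -0.96, Pecam1 at -0.93, Sox18 at -0.81 and Egfl7 at -0.26. Only Cdh5 then passed 2-fold, against 2.85% of all genes, and 1 gene passed against 2.93% with the GC trend removed as well.

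**Figure D4:**
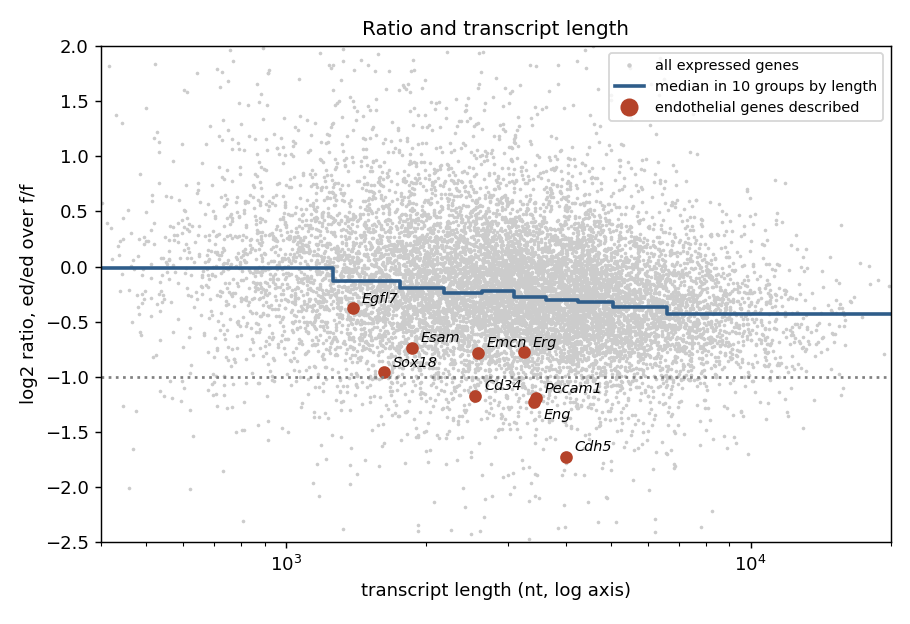
Log2 ratio of ed/ed over f/f against transcript length (log axis) for all expressed genes (grey), with the median in 10 equal groups by length (blue) and the 9 endothelial genes (red, named). The dotted line is 2-fold lower. Each red point lies below the blue line, from Egfl7 at -0.38 to Cdh5 at -1.72, and the axes leave out the most extreme genes.

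The transcripts of the 10 genes had a median length of 2740.5 nt and a median GC content of 51.5%, and those of all expressed genes 3089 nt and 50.2%. GGACT, 1 form of the sequence that the Mettl3 complex methylates, occurred 1 to 5 times per transcript, at a median of 1.16 per kilobase in the 10 genes and 1.05 in all expressed genes. Pecam1 and Cd34 had 1 copy each, Eng had 4 and Cdh5 had 5.

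Among genes outside the lists with a mean of at least 20 FPKM, those with ratios nearest to the median of the 9 were Fam234b, Anxa11 and Ly6c1. Ly6c1, which encodes a surface antigen of monocytes and of some endothelium, was at 34.0 FPKM in ed/ed and 67.3 FPKM in f/f. Of 3482 such genes 114 lay within 0.1 of that median, and with 2 libraries this likeness rests on a single ratio per gene.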

How the data were processed

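RNA extracted with TRIzol was made into TruSeq RNA libraries, per the labels' protocols. The submitters' processing notes name HISAT2 2.2.1, Cufflinks 2.2.1 and the builds mm9 and mm10, with no roles. The authors' deposited tables hold 1 value per gene, taken as FPKM because Cufflinks writes FPKM and the values are decimals with differing sums. The sources used here do not give strand, annotation or filters.

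Log2 ratios used a pseudocount of 1 FPKM among genes that reached 1 FPKM in ed/ed or f/f, and 2-fold stood in for a test. Depth came from the spacing of low FPKM times effective length (length less 250 nt) in genes with 1 transcript over 1000 nt, 0.0576 in ed/ed and 0.0547 in f/f. That offset is an assumption. Fragments of a gene use its longest coding transcript. Ratio intervals are exact binomial and level intervals exact Poisson, both for counting error only.

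Lengths and positions came from GENCODE M21 on GRCm38, matched by identifier for 20557 of 20634 genes, and locate genes, not reads, since the authors' build is open. Promoters came from RefSeq for GRCm38.p6. The genes and lists were chosen with earlier results of these data known, and 247 of 249 list entries matched by symbol. All 10 genes were named, with up to 4 largest absolute ratios per list and fixed direct partners. Others (Ptprc, Csf1r, Vegfd, Selp, Sele, Krt19 and genes listed at 0) were named after their values were seen. Alternatives were other pseudocounts, filters, a 1.5-fold rule, 4 scalings and removal of the length trend by lowess (fraction 0.3). The fold rule, the length trend and the fragment spacing were tested on simulated data (Python 3.11.15, statsmodels 0.14.6). The simulation used the same lengths and offset, so it could not test those assumptions, and the intervals were not tested.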

Additional observations from a re-analysis of the deposited data

How the results depend on the processing

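Under 11 alternatives, 10 of them set beforehand and removal of the length and GC trends added after the data were seen, the expressed endothelial genes kept log2 ratios below 0 and 0 were called higher, though 3 of the 11 (2 filters and the 1.5-fold rule) cannot move a gene's ratio. The count at least 2-fold lower, 4 as reported, was 8 under the 1.5-fold rule, 2 after scaling by the upper quartile, and 1 after scaling by the median ratio or the reference genes, after removal of the length trend, and after removal of the length and GC trends. The remaining 5 alternatives gave 3 to 5. The median log2 ratio of the 9 passed the rule at -1.001 with a pseudocount of 0.1 FPKM and at -0.96 under the 1.5-fold rule, and ranged to -0.61. Over all genes, 757 were lower and 326 higher as reported (30.1% of called genes higher). The counts were 1336 lower with a pseudocount of 0.1 FPKM, and 207 lower and 112 higher with one of 5 FPKM. They were 2850 lower and 856 higher under the 1.5-fold rule, 387 lower and 600 higher (60.8% higher) after scaling by the median ratio, and 466 and 506 (52.1%) by the upper quartile. Scaling by the reference genes gave 335 lower and 707 higher (67.9%), removal of the length trend 347 and 526 (60.3%), and removal of both trends 356 and 512 (59.0%). These scalings raised the ed/ed values by 0.09 to 0.37 on the log2 scale, and the removal of a trend also centres the ratios near 0, so the counts of lower genes fall by construction. Other endothelial genes had from 4 lower with a pseudocount of 5 FPKM to 21 under the 1.5-fold rule, and 0 higher, against 13 lower as reported. No paired analysis was possible because each genotype has 1 library, and for the same reason none could be left out. Depth limits Lyve1, at 11 fragments in ed/ed and 38 in f/f, and leaves 2-fold unresolved for Sox18 and Erg, and the missing replicates limit all 10 genes.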
